A study of Homo sapiens with 26 samples.

Results

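The transcription factor gene MAF is placed under immunoglobulin enhancers by a chromosomal translocation in a minority of multiple myelomas (MM). KMS-11, MM1S and RPMI-8226 are the 3 myeloma lines of the panel with a published rearrangement of this kind, and they are called the MAF lines here. They were assigned by that published status and not by a measured value, out of 12 MM lines and 26 B-cell cancer lines in all. The sample labels give each line's name but no translocation status. Each line was profiled once, untreated, on an Affymetrix HG-U133 Plus 2.0 array, so a line is the replicate and each p value measures the spread between lines.

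The MAF lines were set against the 9 other MM lines KMM-1, KMS-12-BM, KMS-12-PE, LP-1, MOLP-8, NCI-H929, OPM-2, U-266 and AMO-1. By published status these fall into the t(4;14) lines LP-1, NCI-H929 and OPM-2, the CCND1 lines KMS-12-BM, KMS-12-PE, MOLP-8 and U-266, and the lines KMM-1 and AMO-1, placed in neither class. The 14 DLBCL (diffuse large B-cell lymphoma) lines are given as a range beside them. As models the groups have limits. Each line is a single tumour kept in culture, KMS-11 also carries t(4;14), RPMI-8226 has a variant MAF translocation with a light chain locus, MM1S was selected for glucocorticoid sensitivity, KMS-12-BM and KMS-12-PE are sister lines, and AMO-1 came from a plasmacytoma. The 3 MAF lines were all grown in RPMI with 10% serum (FBS). Of the other MM lines, 3 shared that medium, 5 had 20% serum, and LP-1 was grown in IMDM.

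MAF is a basic leucine zipper protein that binds DNA as a dimer at an extended site, the Maf recognition element. In myeloma it is known for raising cyclin D2 (CCND2), integrin β7 (ITGB7), by which plasma cells adhere to stroma, and the chemokine receptor CCR1. In normal tissue the large Maf proteins act in the lens, where they activate crystallin genes, and in T cells and macrophages. Myelomas with t(4;14), which deregulates NSD2 and often FGFR3, are known to express MAF at a lower level as well.

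Values are log2 units after RMA (robust multi-array average) normalisation, so 1 unit is a 2-fold difference in signal, and a value near 3 to 5 is close to the array's background. Where a gene had several probe-sets, the one with the smallest p of the comparison is given, unless stated otherwise. The array medians of the MM lines lay between 5.65 and 5.71. Over all probe-sets the pairs of MAF lines correlated at 0.916 to 0.947 (Pearson's r over probe-sets, 3 pairs). Pairs of a MAF and another MM line lay between 0.906 and 0.944 (27 pairs), and pairs of other MM lines between 0.908 and 0.952 (36 pairs). These ranges overlapped. The plasma cell label was checked by markers at their brightest probe-sets. IRF4, a transcription factor of plasma cells, was at 12.33, 12.61 and 11.58 in KMS-11, MM1S and RPMI-8226, and TNFRSF17, which encodes the myeloma antigen BCMA, was at 12.94, 13.76 and 11.78. Of the 12 plasma cell markers not all were high. CD27 was at 5.35, 5.61 and 4.82 in KMS-11, MM1S and RPMI-8226 and FCRL5 at 5.36, 6.24 and 6.18, while CD38 was at 5.58 and SLAMF7 at 4.44 in KMS-11. In the other MM lines CD27 was above 5.53 only in KMS-12-BM, FCRL5 ranged over 5.45 to 9.25, and SLAMF7 was lowest in KMS-12-BM at 4.91. The mean level of 11 B-cell markers was 5.39, 5.60 and 5.86 in KMS-11, MM1S and RPMI-8226, within the range of 5.32 to 6.18 in the other MM lines.

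MAF itself was measured by 6 probe-sets on chromosome 16, and all 6 were higher on average in the MAF lines. The dimmest of the 6 was near background in every MM line and tells little. It was at 3.01, 3.03 and 3.54 in KMS-11, MM1S and RPMI-8226, against 2.71 to 3.19 in the other MM lines. The brightest MAF probe-set was at 11.85 in KMS-11, 11.46 in MM1S and 12.42 in RPMI-8226. In the other MM lines it was at 10.62 in LP-1, 10.65 in NCI-H929, 9.12 in OPM-2 and 10.23 in KMM-1. It was at 4.84 in KMS-12-BM, 4.93 in KMS-12-PE, 5.11 in MOLP-8, 5.00 in U-266 and 4.65 in AMO-1, and between 4.42 and 5.67 in the DLBCL lines. Thus the 3 MAF lines were the highest of the panel and did not overlap with any other line, while the t(4;14) lines and KMM-1 also had clear MAF signal. The signal of a whole culture cannot tell fewer expressing cells from less RNA per cell.

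A dimmer MAF probe-set, the one with the smallest p, separated the groups further. It was at 8.61, 8.59 and 8.56 in KMS-11, MM1S and RPMI-8226, at 6.21, 6.10 and 5.28 in LP-1, NCI-H929 and OPM-2, and at 6.46 in KMM-1. The remaining 5 MM lines lay between 3.66 and 3.90. The mean was 8.58 ± 0.03 in the MAF lines (SD, n = 3) and 4.79 ± 1.20 in the other MM lines (SD, n = 9), a log2 difference of 3.79 that did not pass the test over all probe-sets (adjusted p = 0.193). For the brightest probe-set the difference was 4.67 (adjusted p = 0.491). Set against the CCND1 lines alone, the difference of the dimmer probe-set was 4.78 and passed (adjusted p = 0.014), and 2 further MAF probe-sets passed with it.

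ITGB7 (chromosome 12) was at 13.42 in KMS-11, 14.03 in MM1S and 13.81 in RPMI-8226. The t(4;14) lines had 12.12 in LP-1, 13.43 in NCI-H929 and 12.96 in OPM-2, and the other 6 MM lines lay between 6.99 and 8.96. The MAF lines and the t(4;14) lines were thus both high, and NCI-H929 was level with KMS-11. The log2 difference of the MAF lines from all other MM lines was 4.12 (adjusted p = 0.491), from the t(4;14) lines 0.92 (adjusted p = 0.841) and from the CCND1 lines 5.66 (adjusted p = 0.0112). KMM-1 had MAF signal at 10.23 with ITGB7 at 7.11. Both marker genes were thus high in all 3 MAF lines and also high in some other MM lines.

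**Figure D1:**
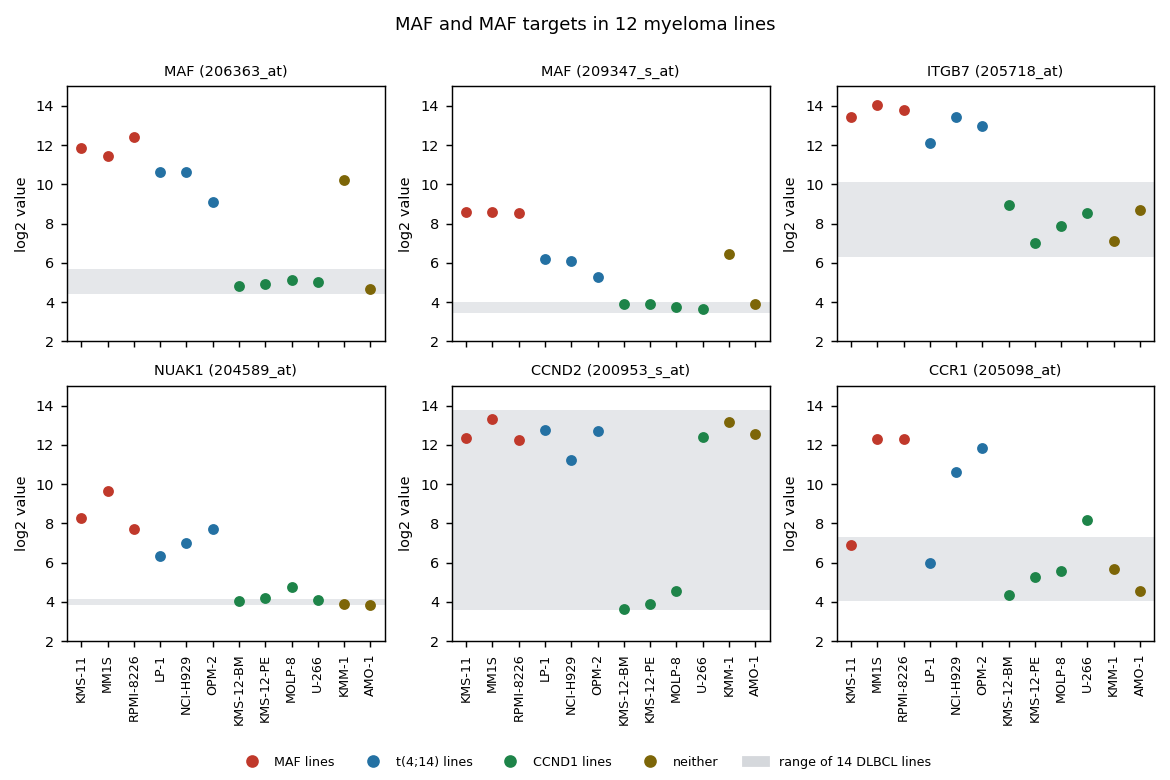
Log2 values of MAF (2 probe-sets), ITGB7, NUAK1, CCND2 and CCR1 in each of the 12 MM lines, coloured by published class, 1 point per line, with the range of the 14 DLBCL lines in grey. The brightest MAF probe-set (first panel) is at 11.46 to 12.42 in the MAF lines and at 9.12 to 10.65 in LP-1, NCI-H929, OPM-2 and KMM-1.

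A list of 12 genes described in myeloma as induced by MAF was then examined, each gene by its brightest probe-set over the 26 lines. None passed the test of the MAF lines against all other MM lines, beside 7 of 19775 genes in all. The list was chosen with earlier results of these data known. The MAF lines had the higher mean for 10 of the 12 genes, beside 10870 of 19775 genes, and the median log2 difference was 2.44, beside 0.03 over all genes. At an unadjusted p under 0.05, 5 of the 12 were higher (ITGB7, NUAK1, RND3, DEPTOR and CX3CR1), against 6.1% of all genes, and none was lower, against 2.92% of all genes. The median difference of the list was 0.66 against the t(4;14) lines and 2.91 against the CCND1 lines. These contrasts share the MAF lines. Against the CCND1 lines 2 of the 12 passed, ITGB7 and NUAK1, and against the t(4;14) lines none did.

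The kinase NUAK1, a relative of AMPK, followed the pattern of MAF in all but 1 line. It was at 8.28 in KMS-11, 9.63 in MM1S and 7.72 in RPMI-8226. It was at 6.34 to 7.70 in LP-1, NCI-H929 and OPM-2, with OPM-2 level with RPMI-8226, and the other 6 MM lines, KMM-1 among them, lay between 3.85 and 4.77. The DLBCL lines lay between 3.83 and 4.14. The log2 difference was 4.27 against the CCND1 lines (adjusted p = 0.0154) and 1.53 against the t(4;14) lines (adjusted p = 0.74).

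Cyclin D2, which drives entry into the cell cycle, was high in the MAF lines but not only there. CCND2 was at 12.33 in KMS-11, 13.31 in MM1S and 12.25 in RPMI-8226, against 11.23 to 13.15 in LP-1, NCI-H929, OPM-2, KMM-1, AMO-1 and U-266. Only KMS-12-BM, KMS-12-PE and MOLP-8 were low, at 3.62, 3.90 and 4.55. The log2 difference from the other MM lines was 2.98 (adjusted p = 0.789), but −0.13 with a term for serum and −0.12 within the lines in RPMI with 10% serum. KMS-12-BM, KMS-12-PE and MOLP-8 are all CCND1 lines and all had 20% serum, which no MAF line had. Serum and class therefore cannot be told apart in this change of the difference. Cyclin D1 (CCND1) was at 4.38 in KMS-11, 5.63 in MM1S and 7.08 in RPMI-8226, against 10.78 to 11.66 in the CCND1 lines.

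The chemokine receptors divided the MAF lines. CCR1, a receptor for CCL3 and CCL5, was at 12.29 in MM1S and 12.30 in RPMI-8226 but at 6.92 in KMS-11. Among the other MM lines NCI-H929 and OPM-2 were also high, at 10.60 and 11.86, and the other 7 lay between 4.37 and 8.18. CX3CR1, the receptor of fractalkine, was at 12.09 in RPMI-8226, 6.80 in MM1S and 3.89 in KMS-11, against at most 4.06 in the other MM lines. Its log2 difference was 3.75 (adjusted p = 0.451), with KMS-11 at the level of the other MM lines. SPP1, the secreted bone matrix protein osteopontin, was at 11.41 in RPMI-8226 but at 3.57 in KMS-11 and 3.94 in MM1S. Its log2 difference was 2.52, and −0.03 without RPMI-8226.

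DEPTOR, an inhibitor of mTOR that lies on chromosome 8, was by its brighter probe-set at 11.95, 12.27 and 10.92 in KMS-11, MM1S and RPMI-8226. The t(4;14) lines had 10.46 to 11.71, and the other 6 MM lines 5.73 to 9.86. RND3, a regulator that loosens the actin cytoskeleton, was at 8.32, 7.89 and 10.16 in KMS-11, MM1S and RPMI-8226, with LP-1 at 9.23 and the other 8 between 4.31 and 6.97. NOTCH2, AHNAK, NTRK2 and SMARCA1 differed by 0.26, 0.07, −0.07 and −0.14, each with an adjusted p of at least 0.87.

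**Figure D2:**
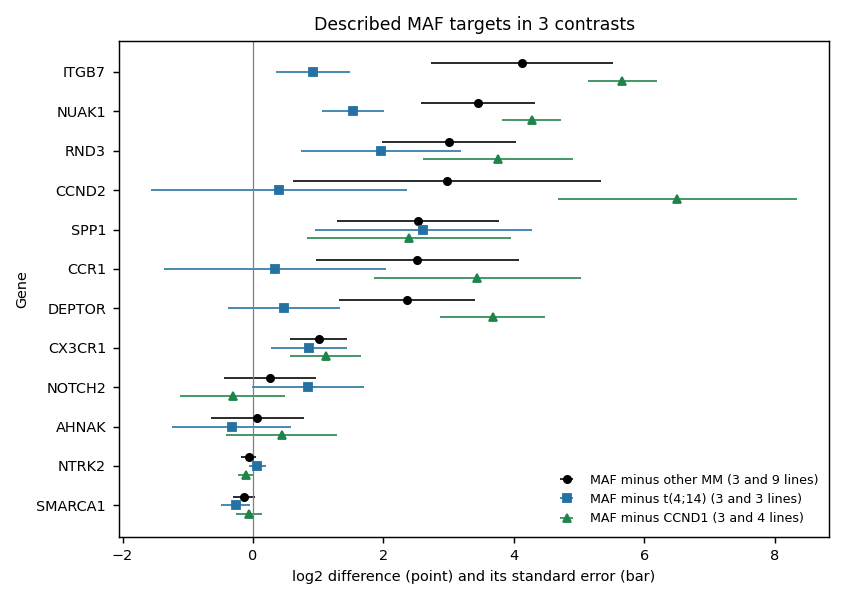
Log2 differences of 12 described MAF targets (points) with their standard errors (bars), for the MAF lines minus all other MM lines, minus the t(4;14) lines and minus the CCND1 lines. ITGB7 is at 5.66 against the CCND1 lines and at 0.92 against the t(4;14) lines.

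The MAF family genes MAFG, MAFF and NRL, by their brightest probe-sets, overlapped between the groups. MAFG, a small Maf protein without an activation domain, was at 8.78, 8.38 and 8.27 in KMS-11, MM1S and RPMI-8226, against 6.64 to 8.67 in the other MM lines. The small Maf gene MAFF was at 5.92, 8.69 and 8.82, and the other MM lines ranged over 4.12 to 9.76. NRL, a large Maf gene of the retina, was at 4.99 to 5.71 in the MAF lines and 5.12 to 6.02 in the other MM lines. Of the 7 genes of the MAF protein's ubiquitin and phosphorylation machinery none passed, beside 7 of 19775 genes in all. The mean was higher for 6 of the 7, beside 10870 of 19775 genes, and their median difference was 0.13, beside 0.03. At an unadjusted p under 0.05, 1 was higher and 0 lower, against 6.1% and 2.92% of all genes. USP7, a deubiquitinase of MAF, was at 11.79, 11.32 and 11.02 in KMS-11, MM1S and RPMI-8226, against 10.92 to 11.44 in the other MM lines.

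When all 54613 probe-sets were tested for MAF lines against the other MM lines, 7 were higher in the MAF lines at an adjusted p under 0.05 (0.0128% of those tested) and 0 were lower (0%). At an unadjusted p under 0.05, 3012 were higher and 1580 lower, and with a trended and robust prior in limma 8 were called, all higher. The 7 probe-sets belonged to 7 genes: SYNDIG1, DSP, LHFPL2, OVOL2, ANKRD23, CRYBB1 and RASSF4. None of these was on the list of described MAF targets. In each of the 7, the lowest MAF line was above the highest of the 9 other MM lines. Such separation is largely a result of picking by p in the same lines, and is no further support.

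SYNDIG1 (chromosome 20), a transmembrane protein of excitatory synapses, gave the smallest p value. It was at 7.06 in KMS-11, 7.15 in MM1S and 7.58 in RPMI-8226. The other 9 MM lines lay between 3.99 and 4.41 with a median of 4.23, and the 14 DLBCL lines between 3.83 and 4.75. The gene was thus at background level in every other line of the panel and above it in the 3 MAF lines. Its log2 difference was 3.06 with a standard error of 0.13 (adjusted p = 1.32e-06). It was also the 1 probe-set called against the t(4;14) lines (difference 3.14, adjusted p = 0.000177).

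DSP (chromosome 6) encodes desmoplakin, which anchors desmosomes to keratin filaments in epithelia. It was at 6.55 in KMS-11, 7.82 in MM1S and 8.10 in RPMI-8226. LP-1 had 4.97, the other 8 MM lines lay between 3.43 and 3.95, and the DLBCL lines reached 4.46. The log2 difference was 3.66 ± 0.35 (standard error, adjusted p = 0.00748). OVOL2 (chromosome 20), a zinc finger repressor that keeps epithelial cells epithelial, was at 6.39, 6.95 and 6.02 in KMS-11, MM1S and RPMI-8226, against 4.30 to 5.04 in the other MM lines. Its difference was 1.80 ± 0.18 (standard error, adjusted p = 0.00748), and the highest DLBCL line was level with RPMI-8226 at 6.02. The other OVOL2 probe-set was dim in every MM line, at 3.74 to 4.51, and did not pass (adjusted p = 0.411).

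CRYBB1 (chromosome 22) encodes a β-crystallin, a structural protein of the eye lens. It was at 8.09 in KMS-11, 10.33 in MM1S and 9.22 in RPMI-8226. The other MM lines lay between 5.86 and 6.88 and the DLBCL lines between 5.81 and 6.93. The MAF lines therefore differed among themselves by more than the other 23 lines did, yet none overlapped with them. The log2 difference was 2.89 ± 0.35 (standard error, adjusted p = 0.032).

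ANKRD23 (chromosome 2), an ankyrin repeat protein of striated muscle, was at 6.71, 7.37 and 6.92 in KMS-11, MM1S and RPMI-8226, against 4.58 to 5.57 in the other MM lines. Its difference was 1.83 ± 0.20 (standard error, adjusted p = 0.0107). LHFPL2 (chromosome 5), a tetraspan membrane protein, was at 7.85, 7.38 and 8.19, against 6.01 to 6.57 in the other MM lines (difference 1.56, adjusted p = 0.00748). The DLBCL lines had LHFPL2 at 5.80 to 10.56, so it set the MAF lines apart within myeloma only.

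RASSF4 (chromosome 10), a Ras association domain protein, was at 9.56 in KMS-11, 9.11 in MM1S and 8.36 in RPMI-8226. The other MM lines lay between 6.44 and 7.57, with LP-1 the highest and OPM-2 next at 7.16. The difference was 2.24 ± 0.28 (standard error, adjusted p = 0.032). All 5 RASSF4 probe-sets were higher on average in the MAF lines, but the other 4 did not pass. The probe-set with the widest mean difference was at 10.58, 10.17 and 8.22 in KMS-11, MM1S and RPMI-8226, and LP-1 exceeded RPMI-8226 there at 8.92.

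**Figure D3:**
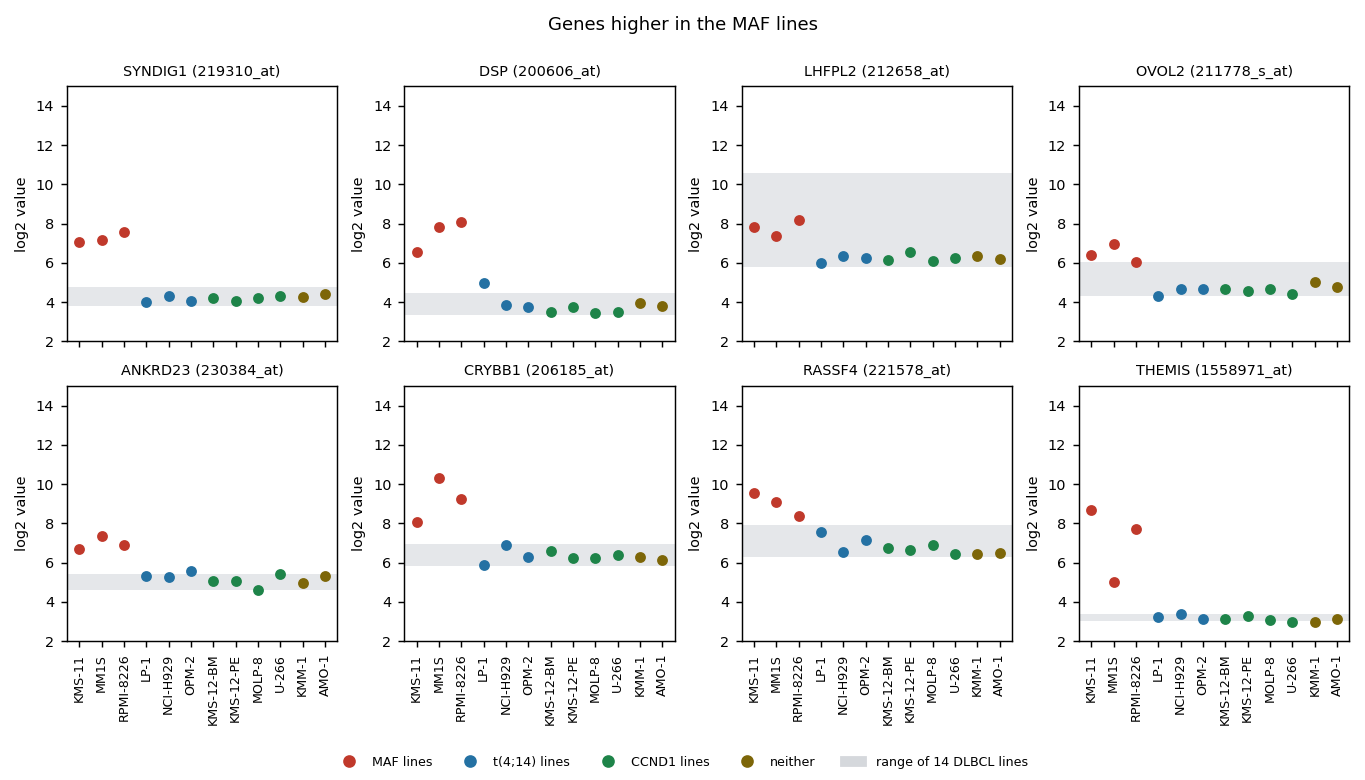
Log2 values of the 7 genes called higher in the MAF lines and of THEMIS, which did not pass, in each of the 12 MM lines (1 point per line, coloured by published class), with the range of the 14 DLBCL lines in grey. SYNDIG1 is at 7.06 to 7.58 in the MAF lines and at 3.99 to 4.41 in the other MM lines.

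The promoters of the called genes were read for the letters TGCTGAC, a part and not the whole of the Maf recognition element. Either strand was read in the 250 bases before the start. RefSeq promoters (GRCh38.p14) were matched for 5 of the 7 genes, DSP, LHFPL2, ANKRD23, CRYBB1 and RASSF4. RASSF4 was the 1 with a match, and 3.42% of 27305 promoters of the same length held one. Among the described MAF targets with a matched promoter, RND3 held a match, while CCR1, CX3CR1, ITGB7, NUAK1, NOTCH2, SPP1, AHNAK, NTRK2 and SMARCA1 held none in this window. A match is a description of letters only. Both sequences are shown 5′ to 3′ on the strand of the gene, with the match in capitals (here as GTCAGCA, its reverse complement). RASSF4 lies at chr10:44959552-44959801 on the + strand, its match starting 19 bases before the gene's start, and RND3 at chr2:150487696-150487945 on the − strand, its match starting 204 bases before.
RASSF4: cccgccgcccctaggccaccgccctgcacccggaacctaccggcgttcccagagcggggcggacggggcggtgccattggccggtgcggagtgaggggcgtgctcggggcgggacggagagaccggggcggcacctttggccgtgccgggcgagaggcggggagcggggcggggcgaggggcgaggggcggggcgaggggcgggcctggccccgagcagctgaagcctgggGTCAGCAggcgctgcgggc
RND3: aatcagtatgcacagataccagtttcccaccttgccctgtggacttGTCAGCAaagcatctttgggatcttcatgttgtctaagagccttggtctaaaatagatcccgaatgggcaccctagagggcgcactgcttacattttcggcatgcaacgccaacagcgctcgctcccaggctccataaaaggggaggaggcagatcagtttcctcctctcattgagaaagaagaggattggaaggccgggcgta

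The number of calls depended on the lines in the fit. Without KMS-11 it was 30 and without MM1S 24, and in a fit of all 26 lines, in which the DLBCL lines shared in the estimate of the spread, it was 84, with 6 of the 7 kept and LHFPL2 lost (adjusted p = 0.572). SYNDIG1, DSP, LHFPL2 and OVOL2 were called whichever of the 12 MM lines was left out, and ANKRD23 whichever but RPMI-8226. CRYBB1 was called in 3 of these 12 fits, without KMS-11, MM1S or NCI-H929, and RASSF4 in 2, without LP-1 or RPMI-8226. With a term for serum only SYNDIG1 was called. The 7 differences were then between 1.60 and 3.45, against 1.56 and 3.66 without that term, and within the 6 lines in RPMI with 10% serum, where SYNDIG1 alone of the 7 was called (adjusted p = 0.0462), they were between 1.54 and 3.76. The part of serum in these results was not otherwise tested.

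Among the genes next in order, which did not pass, THEMIS had the largest difference. THEMIS, a signalling protein of thymocytes and T cells, was at 8.66 in KMS-11, 5.00 in MM1S and 7.71 in RPMI-8226, against 2.95 to 3.36 in the other MM lines and at most 3.36 in the DLBCL lines. Its log2 difference was 3.98 (adjusted p = 0.0626). The CD3 genes of the T-cell receptor complex were dim in the same arrays. CD3D was at 5.44, 5.42 and 5.07, CD3E at 4.90, 5.23 and 5.18, and CD3G at 5.08, 5.04 and 4.98 in KMS-11, MM1S and RPMI-8226. The mean over all 14 T and NK cell markers was 5.28 to 5.45 in the MAF lines and 5.10 to 5.64 in the other MM lines. PLXNA2, a semaphorin co-receptor, followed with a difference of 1.49 (adjusted p = 0.102), and NHSL3 with 0.80 (adjusted p = 0.113).

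No gene passed the test in the direction of lower values in the MAF lines. The leading 10 by p were NDUFS1, GPATCH2L, NORAD, CAMK2D, HOOK3, SBNO1, ABCD4, GOLGA3, PCGF3 and YLPM1, with log2 differences from −0.73 to −2.76 and adjusted p from 0.114 to 0.3. For NDUFS1, a subunit of respiratory complex I, the leading probe-set was at 6.55, 7.51 and 6.59 in KMS-11, MM1S and RPMI-8226, against a median of 8.41 and a highest value of 9.10 in the other MM lines. CAMK2D, a calcium and calmodulin dependent kinase, was at 6.26, 4.91 and 4.55, against 7.25 to 9.13 in the other MM lines and 6.96 to 10.43 in the DLBCL lines. HOOK3, a dynein adaptor, was at 4.63, 4.62 and 4.27, against 6.21 to 8.56 in the other MM lines. In all 10, the highest MAF line lay below the lowest other MM line. The 10 were picked by their small p in the same comparison, so this separation is no further support for them.

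As a description with no test, probe-sets were counted in which the 3 MAF lines were all at least 1 log2 unit above every other MM line. There were 12 such probe-sets (0.022%) and 2 in the opposite direction (0.00366%), both of HOOK3. The 12 were those of SYNDIG1, DSP, ANKRD23, CRYBB1, TBC1D30, MICAL2, ANKRD36BP2 and ARID5A, a pair of THEMIS and a pair of MAF. Just inside the threshold lay MICAL2 with a gap of 1.03 and TBC1D30 with 1.07. Just outside lay a further MAF probe-set with 0.99 and OVOL2 with 0.98. The count was 66 without KMS-11, 45 without MM1S, 39 without RPMI-8226 and 23 without LP-1.

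Of these genes ANKRD36BP2 and TBC1D30 were very even within the MAF lines, while ARID5A and MICAL2 were less so. ANKRD36BP2, a transcribed pseudogene whose near-identical copies may share its probes, was at 9.44 in KMS-11, 9.44 in MM1S and 9.43 in RPMI-8226, against 5.23 to 8.24 in the other MM lines. The DLBCL lines had it at 5.70 to 10.39. TBC1D30, a Rab GTPase activating protein, was at 6.90, 7.07 and 6.81, against 3.10 to 5.74 in the other MM lines. ARID5A, which stabilises cytokine messenger RNAs, was at 9.92, 11.02 and 10.14, against 7.08 to 8.63. MICAL2, an enzyme that oxidises actin, was at 7.46, 6.55 and 9.17, against 3.74 to 5.52.

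Set against the 3 t(4;14) lines alone, only SYNDIG1 was called higher (0.00183%) and no probe-set lower (0%), with 1797 higher and 1526 lower at an unadjusted p under 0.05. This count was 10 without MM1S or without NCI-H929, 8 without KMS-11, 6 without LP-1, 4 without OPM-2, 3 without KMM-1 or AMO-1, and 2 without U-266. NSD2, the histone methyltransferase of the t(4;14) locus, was at 8.31 in KMS-11, 7.91 in MM1S and 6.02 in RPMI-8226 by its probe-set with the widest difference, against 10.06, 10.45 and 10.91 in LP-1, NCI-H929 and OPM-2. By its brightest probe-set NSD2 was at 11.08, 9.37 and 7.48 in KMS-11, MM1S and RPMI-8226, against 10.15, 10.97 and 11.68 in LP-1, NCI-H929 and OPM-2, so there KMS-11 lay within the range of the t(4;14) lines. FGFR3, by its brighter probe-set, was at 14.34 in KMS-11, but at 4.82 in MM1S and 4.27 in RPMI-8226. LP-1, NCI-H929 and OPM-2 had it at 8.68, 11.95 and 13.75.

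Set against the 4 CCND1 lines, 17 probe-sets were higher in the MAF lines (0.0311%) and 6 lower (0.011%). Besides MAF, ITGB7 and NUAK1, the higher ones were 2 of the 3 SMAD1 probe-sets, DUSP23, PLXNA2, TLE3, CLTB and 6 of the 7 genes above, all but CRYBB1 (adjusted p = 0.0975). SMAD1, which carries bone morphogenetic protein signals to the nucleus, was at 8.13 in KMS-11, 7.33 in MM1S and 8.35 in RPMI-8226, against 2.91 to 3.27 in the CCND1 lines (difference 4.82, adjusted p = 0.000235). The t(4;14) lines were higher still at 9.29 to 10.19, and KMM-1 and AMO-1 were at background. DUSP23, a small phosphatase, was at 9.78, 8.82 and 8.70 in KMS-11, MM1S and RPMI-8226 and at 8.46 to 9.07 in the t(4;14) lines, against 5.33 to 5.69 in the CCND1 lines. Both genes thus marked the MAF and the t(4;14) lines together.

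The 6 probe-sets lower than in the CCND1 lines were those of KPNA5, DSCR8, LINC00470, TSPYL4 and UGCG and 1 with no gene name. DSCR8, a noncoding RNA gene known as a cancer-testis transcript, was at 4.79 in KMS-11, 4.79 in MM1S and 6.80 in RPMI-8226, against 9.35 to 10.56 in the CCND1 lines (difference −4.40, adjusted p = 0.0188). It was also low in the t(4;14) lines, at 4.92 to 5.18, and high in KMM-1 and AMO-1. KPNA5, an importin that carries proteins into the nucleus, was at 6.26, 6.32 and 5.93, against 7.97 to 8.90 in the CCND1 lines (difference −2.39, adjusted p = 0.0129). The count of 23 was 7 without KMS-12-BM and 13 without KMS-12-PE, and 14 with 1 probe-set per gene. KMS-12-BM and KMS-12-PE are sister lines but were counted as separate replicates, so the p values treat them as independent.

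The remaining gene lists gave no member that passed against the other MM lines, beside 7 of 19775 genes in all. Members with an unadjusted p under 0.05 are described, each gene by its brightest probe-set, beside shares of 6.1% higher and 2.92% lower over all genes. Of 15 G1 control genes, CDKN1C, a CDK inhibitor, was at 7.35, 6.20 and 8.93 in KMS-11, MM1S and RPMI-8226, against 4.75 to 6.07 in the other MM lines (adjusted p = 0.39), and all 5 of its probe-sets had a higher mean in the MAF lines. Of 18 chemokines and receptors 4 were higher at this level, CCL5, CXCL10, CX3CR1 and CXCR3. CXCR3 was at 7.44, 8.11 and 8.74 in KMS-11, MM1S and RPMI-8226, against 6.59 to 8.21 in the other MM lines. CCL5 was at 9.82, 9.24 and 10.78 in the MAF lines, against 6.27 to 8.45 in 8 other MM lines and 10.83 in AMO-1. CXCL10 was at 5.22, 9.04 and 7.18, against 4.57 to 6.42 in the other MM lines. Of 12 genes of the BAFF and TNF receptor system, TNFRSF13B, the plasma cell receptor TACI, was at 8.03, 8.98 and 7.96, with LP-1 at 8.45 and the others at 6.49 to 7.41 (adjusted p = 0.438). Its ligand gene TNFSF13 (APRIL) was at 5.82, 7.57 and 8.88, against 5.38 to 6.93.

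In the NF-κB list of 17 genes the direction was mixed. The deubiquitinase CYLD and the kinase MAP3K14 had means 1.02 and 1.02 higher, and REL had a mean 2.15 lower (a difference of −2.15, adjusted p = 0.552). REL was at 7.25, 5.47 and 7.27 in KMS-11, MM1S and RPMI-8226, against 6.57 to 11.08 in the other MM lines. Of 7 genes of cereblon and glucocorticoid response, the glucocorticoid receptor NR3C1 was at 11.34, 11.08 and 10.58, against 9.04 to 11.19. Cereblon (CRBN), the target of lenalidomide, was at 8.14, 8.76 and 9.67, against 9.01 to 10.11. ABCG2, a drug efflux pump, was at 8.97, 7.99 and 10.37, against 4.67 to 9.54. Each of these ranges overlapped between the groups. The other members at this level were, with their log2 differences, the Notch genes DLL4 (0.43) and LFNG (0.37), the integrins ITGA5 (0.27) and ITGA8 (0.43), the MAX partner MGA (−0.75), the kinase GSK3A (0.27) and the stromal markers PDGFRB (0.45) and DCN (−0.24), with adjusted p values between 0.469 and 0.587. The galectin LGALS9 was at 7.26, 7.31 and 9.79 in KMS-11, MM1S and RPMI-8226, against 6.54 to 7.20 in the other MM lines (adjusted p = 0.491). Its groups did not overlap, but KMS-11 and MM1S lay only just above the highest other MM line.

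The APOBEC cytidine deaminases, whose mutational signature is known from myelomas with MAF translocations, gave no call. The mean was higher for 6 of 6 measured members, beside 10870 of 19775 genes, but the median log2 difference was 0.14 by the brightest probe-sets and none had an unadjusted p under 0.05. APOBEC3B was at 8.40 in KMS-11, 11.31 in MM1S and 11.81 in RPMI-8226, against 8.21 to 10.94 in the other MM lines. MM1S and RPMI-8226 were thus the highest of all MM lines and KMS-11 among the lowest. APOBEC3G showed the same division, at 4.96 in KMS-11, 10.86 in MM1S and 10.59 in RPMI-8226, with the other MM lines at 4.96 to 11.13. The lists of BCL2 family, cytokine receptor, MHC class II, proteasome and unfolded protein response, glutathione and aldehyde dehydrogenase, and proliferation genes held 0 members at an unadjusted p under 0.05 in either direction. Each of these lists had 12 to 20 measured genes. With shares of 6.1% higher and 2.92% lower over all genes, few such members could occur in any of them, so these counts say little.

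Differences of the MAF lines from each other are described here with no test, out of 54613 probe-sets. RPMI-8226 had 274 probe-sets at least 3 log2 units above both of the other MAF lines and 108 as far below. KMS-11 had 104 above and 134 below, and MM1S 101 above and 46 below. A like count was not made among the other MM lines. Over all probe-sets the median r was 0.932 for pairs of MAF lines and 0.926 for pairs of other MM lines. The counts therefore do not show that the MAF lines were more spread than other MM lines. The genes with the widest gaps in each direction, by the probe-set with the widest gap, describe the lines as follows.

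KMS-11 stood apart by FGFR3, and by the neuronal and muscle genes BHLHE22 at 11.47 and MLIP at 11.27, which MM1S and RPMI-8226 had at 4.62 to 5.34. In the other MM lines they were at most 5.17 and 5.09. KMS-11 had EVI2A and EVI2B, leukocyte membrane proteins encoded within an intron of NF1, at 3.51 and 3.95, while MM1S and RPMI-8226 had them at 10.73 to 11.50. In the other MM lines they ranged over 3.28 to 11.47 and 3.65 to 11.95, with medians of 4.04 and 4.88. Low values were thus not particular to KMS-11. The secretory SNARE VAMP8 was at 4.51 in KMS-11, and no other MM line had it below 6.00.

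MM1S stood apart from the other MAF lines by the adhesion molecule CD44, at 12.16 against 4.77 in KMS-11 and 3.36 in RPMI-8226. The other MM lines had CD44 at 3.37 to 11.98 with a median of 9.24, so a high value was not particular to MM1S. SYCP3, a protein of meiotic chromosomes, was at 9.92 in MM1S and at most 3.46 in every other MM line. SLAMF7, the target of elotuzumab, was at 12.61 in MM1S, 4.44 in KMS-11 and 7.35 in RPMI-8226. It was also high in many other MM lines, which ranged over 4.91 to 12.29 with a median of 11.97. MM1S was low in IGF2BP3, an oncofoetal RNA-binding protein, at 3.58 against 10.13 in KMS-11 and 9.74 in RPMI-8226. The glycolytic enzyme PFKP was at 6.12 in MM1S, against 11.47 in KMS-11 and 10.82 in RPMI-8226.

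RPMI-8226 stood apart by the calcium binding protein PVALB, at 12.75 against at most 4.17 in any other MM line. ASS1, which makes argininosuccinate from citrulline, was at 14.14 in RPMI-8226 but at 6.02 in KMS-11 and 5.06 in MM1S, and at 6.19 to 9.99 in the other MM lines. The interferon-induced IFI27 was at 12.42, against 4.32 to 10.22 in the other MM lines and up to 11.10 in the DLBCL lines. UCHL1, a deubiquitinase, was at 5.93 in RPMI-8226, 13.13 in KMS-11 and 12.99 in MM1S. RUNX2, a regulator of bone formation, was at 5.09 in RPMI-8226, and no other MM line had it below 8.61.

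**Figure D4:**
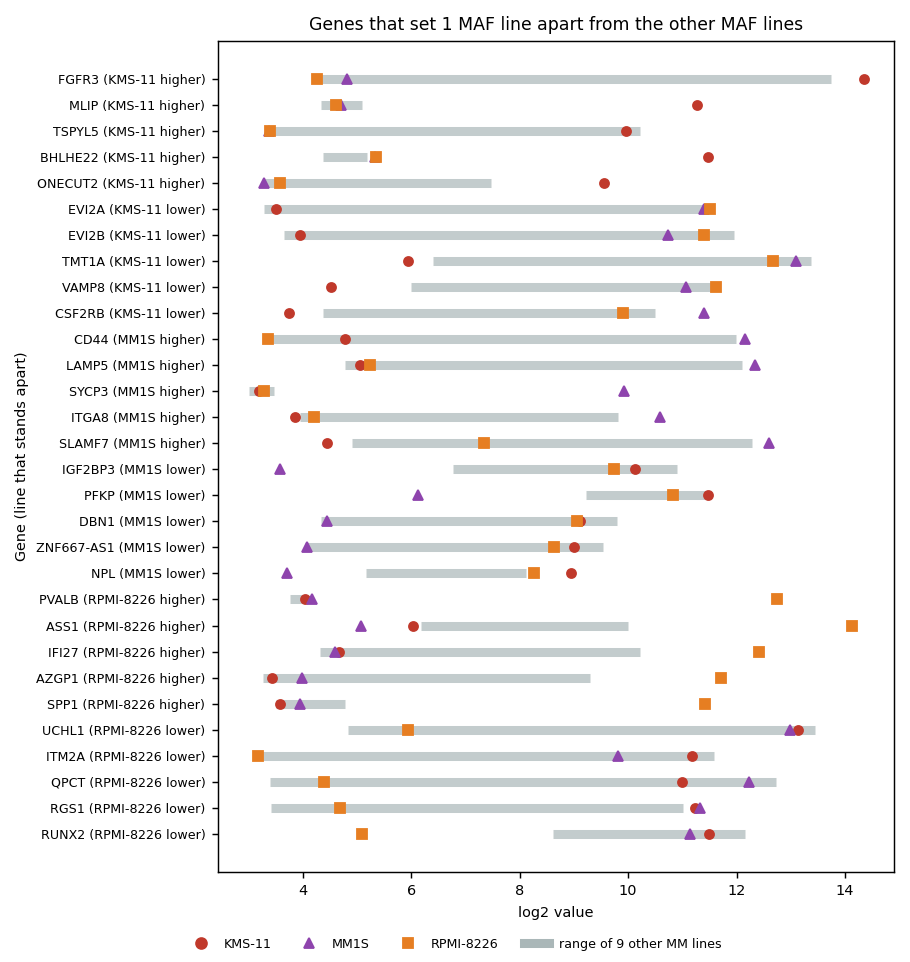
Log2 values in KMS-11 (circle), MM1S (triangle) and RPMI-8226 (square) of the 5 genes in each direction that set each line furthest apart from the other MAF lines, with the range of the 9 other MM lines as a grey bar. PVALB is at 12.75 in RPMI-8226 and at 4.04 and 4.17 in KMS-11 and MM1S.

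Finally, drug response was compared. AUC0 summarises a dose response curve by the area beneath it where growth stays above zero, so a higher value means a more resistant line, and the values are those in the sample labels. For cyclophosphamide, tested as mafosfamide, AUC0 was 318 in KMS-11, 242 in MM1S and 350 in RPMI-8226, against 249 to 395 with a median of 309 in the other MM lines. For doxorubicin it was 356, 227 and 297, against 253 to 346 with a median of 325. For vincristine it was 123, 90 and 111, against 90 to 187 with a median of 121. MM1S had the lowest AUC0 of the MM lines for cyclophosphamide and doxorubicin and shared the lowest with U-266 for vincristine. KMS-11 had the highest for doxorubicin, whereas U-266 and AMO-1 exceeded all 3 MAF lines for cyclophosphamide, at 376 and 395, and LP-1 was highest for vincristine at 187.

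The mean AUC0 was 303 ± 55.5 in the MAF lines and 321 ± 43.4 in the other MM lines for cyclophosphamide (SD, n = 3 and 9), a difference of −17.2 (exact permutation p = 0.586). For doxorubicin it was 293 ± 64.6 in the MAF lines and 311 ± 32.7 in the other MM lines, a difference of −17.8 (exact permutation p = 0.536). For vincristine it was 108 ± 16.7 in the MAF lines and 128 ± 30.4 in the other MM lines, a difference of −20.0 (exact permutation p = 0.327). The tests were two-sided over 220 splits of the lines, which allow a smallest p of 0.00455, and each p adjusted over the 3 drugs was 0.586. The differences lay within the spread of the lines.

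**Figure D5:**
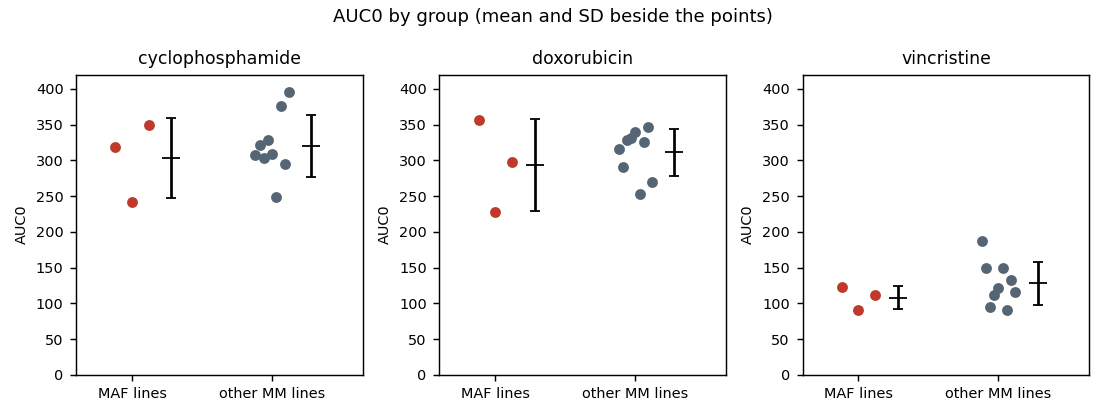
AUC0 of cyclophosphamide (as mafosfamide), doxorubicin and vincristine in the 3 MAF lines and the 9 other MM lines, 1 point per line, with the mean and SD of each group in black. The MAF lines span 242 to 350 for cyclophosphamide, inside the 249 to 395 of the other MM lines but for MM1S.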

How the data were processed

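Per the labels, the authors deposited 1 table of log2 values, made from Affymetrix HG-U133 Plus 2.0 arrays by RMA (background correction, quantile normalisation and median polish over all arrays together) with the affy package in R 3.0.1. Quantile normalisation gives every array the same distribution, so the values are relative, and 1 array per line limits their precision. No scan date or batch was given. The values were used as deposited, between 2.41 and 15.09. Of 54675 probe-sets 62 controls were left out. Gene symbols came from the platform annotation: 41091 probe-sets had 1 symbol, 1801 several and 11721 none.

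The 3 MAF lines were compared with the 9 other MM lines by limma 3.58.1 in R 4.3.3 (lmFit and eBayes, two-sided), with Benjamini-Hochberg adjustment over 54613 probe-sets and a threshold of 0.05. A second fit had 4 published classes. The named genes were the 10 with the smallest p in each direction, the separated probe-sets, the calls of each contrast and members of fixed lists, and in each list a gene was represented by its brightest probe-set over the 26 lines. The lines were assigned to classes by published status, but this grouping and the lists were chosen for study with earlier results of these data known. Standard errors are those of limma. Drug response used the AUC0 values given in the labels, by exact permutation in Python 3.11.15 with numpy 2.4.6. The scripts were tested on simulated data. The alternatives were another prior, 1 probe-set per gene, a filter on dim probe-sets (mean under 5), median centring, all lines in 1 fit, terms for t(4;14) and serum, the lines of 1 medium, other gaps, medians and each line left out.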

Additional observations from a re-analysis of the deposited data

Results flagged for a closer look

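In 5 of 68 groups of 9 other MM lines tested, 1 line lay far from the rest by Dixon's ratio, which chance gives in about 1 group in 20. LP-1 had DSP at 4.97, and the next line was at 3.95, so it was the MM line nearest to the MAF lines. LP-1 also had TNFRSF13B at 8.45, and the next line was at 7.41. AMO-1 had CCL5 at 10.83, above all 3 MAF lines, and the next of the other MM lines was at 8.45. KMS-12-PE had SPP1 at 4.77, and the next line was at 3.85. It also had TNFSF13 at 6.93, and the next line was at 5.95. The sister line KMS-12-BM had SPP1 at 3.54 and TNFSF13 at 5.53.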

How the results depend on the processing

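With 3 MAF lines and 1 array each, the precision rests on few lines, and dim probe-sets such as those of SYNDIG1 in the other MM lines are near background. The 7 calls were 8 with a trended robust prior or a t(4;14) term, 6 or 7 with 1 probe-set per gene, 5 without dim probe-sets (which leaves out SYNDIG1 and DSP), 7 with centred arrays, 84 with all 26 lines in 1 fit (73 higher, 11 lower) and 1 with a serum term. Leaving out each line gave 5 to 30. The cause of these differences was not tested. The 14 separated probe-sets were 43 at a gap of 0.5 and 2 at a gap of 2, and 16 to 66 with each line left out. The 1 call against the t(4;14) lines was 1 to 10 with each line left out. The 23 against the CCND1 lines were 14 with 1 probe-set per gene and 7 to 28 with each line left out.

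For AUC0 the difference of cyclophosphamide was 9 by medians, and −40.6 to 13.4 with each line left out, above 0 only without MM1S. That of doxorubicin was −49.1 to 15.4, again above 0 only without MM1S, and that of vincristine −27.5 to −11. Of 1367 values of 65 named probe-sets under the alternatives, 1292 kept their direction and side of the threshold, 35 lost the call, 28 gained one and 12 changed sign. The 12 belonged to 5 genes that had not passed. AHNAK was at −0.45 with the serum term, −0.0933 without KMS-12-PE, −0.146 without NCI-H929 and −0.182 without RPMI-8226, and its range with each line left out was −0.33 (without KMS-11) to 0.71. CCND2, whose low lines were all CCND1 lines with 20% serum, was at −0.126 with the serum term and −0.121 within the lines in RPMI with 10% serum. NOTCH2 was at −0.265 with the serum term. With each line left out NOTCH2 ranged over −0.131 to 0.51, APOBEC3B over −0.0204 to 1.68 and SPP1 over −0.0277 to 3.89, each below 0 only without RPMI-8226. No paired analysis was possible because the lines of the groups share no replicate label.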
